A study of Homo sapiens with 15 samples.

Results

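The lasting state of a doxorubicin-selected breast cancer line was set against the acute response of its drug-sensitive parent. Untreated CALDOX, a line derived from CAL51 by long growth in 0.4 µM doxorubicin, was compared with CAL51 after 48 h in 0.4 µM doxorubicin, 3 arrays against 3, or 6 of the 15 arrays of the series, chosen by their labels. CAL51 is a human triple-negative breast cancer line, a class that lacks the oestrogen and progesterone receptors and does not amplify ERBB2. The other 9 arrays serve as reference points: untreated CAL51, CAL51 after 24 h in 0.4 µM, and CALDOX that had spent 3 passages without drug and then 24 h in 4 µM. They also enter the estimate of spread and the choice of probe set for each gene. Each group holds 3 separate cultures with 1 array each. CALDOX is a single selected line, and the labels do not say whether its untreated cultures were free of the drug in which it is routinely kept. Cell line, time in drug and dose history all differ between the groups compared and cannot be told apart by this comparison alone.

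Doxorubicin, an anthracycline, traps topoisomerase II on cut DNA. In cells with working p53 the breaks stabilise p53, which switches on a set of direct targets, among them CDKN1A, encoding the cyclin-dependent kinase inhibitor p21. With those kinases held back, RB-family proteins and the DREAM complex repress the genes of DNA replication and mitosis. A line that survives selection can differ from its parent in how much drug reaches the nucleus, in how it detoxifies oxidants, and in many genes with no known part in either.

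Values are log2 intensities, so a difference of 1 is 2-fold. A gene is called higher or lower where the limma adjusted p for the comparison was under 0.05 after Benjamini-Hochberg adjustment over all 19775 genes. A difference is written with its standard error, as a ± b, from a model over all 15 arrays, and n = 3 arrays in each group throughout. Arrays of a group correlated at 0.9936 or above, and arrays of CALDOX with those of CAL51 at 48 h at 0.9767 to 0.9800. No array stood apart from its group.

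With limma, 5568 genes separated the 2 states, 3228 higher in CALDOX (16.3% of those tested) and 2340 lower (11.8%). The median over all genes was 0.03. Of the called genes, 190 were at least 2-fold higher (0.961% of all genes) and 324 at least 2-fold lower (1.64%). For 7628 genes (38.6%) no CALDOX array fell within the range of the CAL51 48 h arrays or the reverse. For orientation, 2071 genes rose (10.5%) and 2206 fell (11.2%) in CAL51 over the 48 h of treatment, while untreated CALDOX had 2807 genes higher (14.2%) and 2318 lower (11.7%) than untreated CAL51. Those 2 comparisons share arrays with the main one, so their values are set beside it for single genes and lists and are not counted as agreement.

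The gene furthest above CAL51 at 48 h was PHLDB2, followed by BCAT1. PHLDB2, which anchors cortical microtubules near cell adhesions, read 10.24, 10.41 and 10.32 in CALDOX against 4.17, 4.54 and 4.58 in CAL51 at 48 h. The difference was 5.90 ± 0.09 (59.5-fold, adjusted p = 4.3e-16), and untreated CAL51 stood at 4.43, 4.48 and 4.45. Both CAL51 groups therefore lay close together and far below CALDOX, although only 2 of the 5 PHLDB2 probe sets were called. BCAT1, the cytosolic branched-chain aminotransferase, read 12.22, 12.49 and 12.33 in CALDOX and 6.79, 7.02 and 7.15 in CAL51 at 48 h, a difference of 5.35 ± 0.11 (40.9-fold, adjusted p = 4.7e-15) called in all 4 of its probe sets. No BCAT1 array of one group came near those of the other. The rest of the 12 highest genes lay between 2.70 and 4.50. They were NPNT (4.50), the matrix protein nephronectin, SGK1 (4.41), a serum- and glucocorticoid-induced kinase, CDH17 (4.05), a cadherin, GEM (3.32), a small GTPase, CRYM (3.29), a thyroid hormone-binding crystallin, KITLG (3.02), the ligand of the KIT receptor, the ligand WNT5A (3.02), EGFL6 (2.99), a secreted protein with EGF repeats, ZNRF2 (2.72), a ubiquitin ligase, and the non-coding RNA LINC01159 (2.70).

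The genes furthest below CAL51 at 48 h were FBN2, AMIGO2 and SOST. FBN2, which encodes the microfibril protein fibrillin-2, read 5.35, 4.94 and 4.67 in CALDOX and 11.26, 11.24 and 11.34 in CAL51 at 48 h, a difference of -6.29 ± 0.14 (78.4-fold, adjusted p = 1.7e-14). FBN2 was called in 2 of 3 probe sets. AMIGO2, an adhesion molecule, read 5.60, 5.63 and 5.69 against 11.84, 11.82 and 12.01, a difference of -6.24 ± 0.09 (75.8-fold, adjusted p = 4.2e-16). SOST, encoding the Wnt antagonist sclerostin, read 5.51, 5.67 and 5.96 against 11.46, 11.30 and 11.47, a difference of -5.69 ± 0.11 (51.8-fold, adjusted p = 1.8e-15). For all 3 genes the CALDOX arrays sat near the dim end of the scale and the CAL51 arrays near the bright end. The other 9 were EMP1 (-5.33), an epithelial membrane protein, SCD5 (-5.29), a stearoyl-CoA desaturase, COL5A2 (-4.93), a fibrillar collagen chain, NTS (-4.47), the neuropeptide neurotensin, USP44 (-4.43), a deubiquitinase of the spindle checkpoint, PTX3 (-4.33), a secreted pentraxin, GJA1 (-4.22), the gap junction protein connexin 43, SLC2A3 (-3.87), a glucose transporter, and MAMDC2 (-3.82). SCD5 was called in 3 of its 4 probe sets. The deposited table carries no detection calls, so the true change of a gene that is dim in one group may be larger than the value given.

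**Figure D1:**
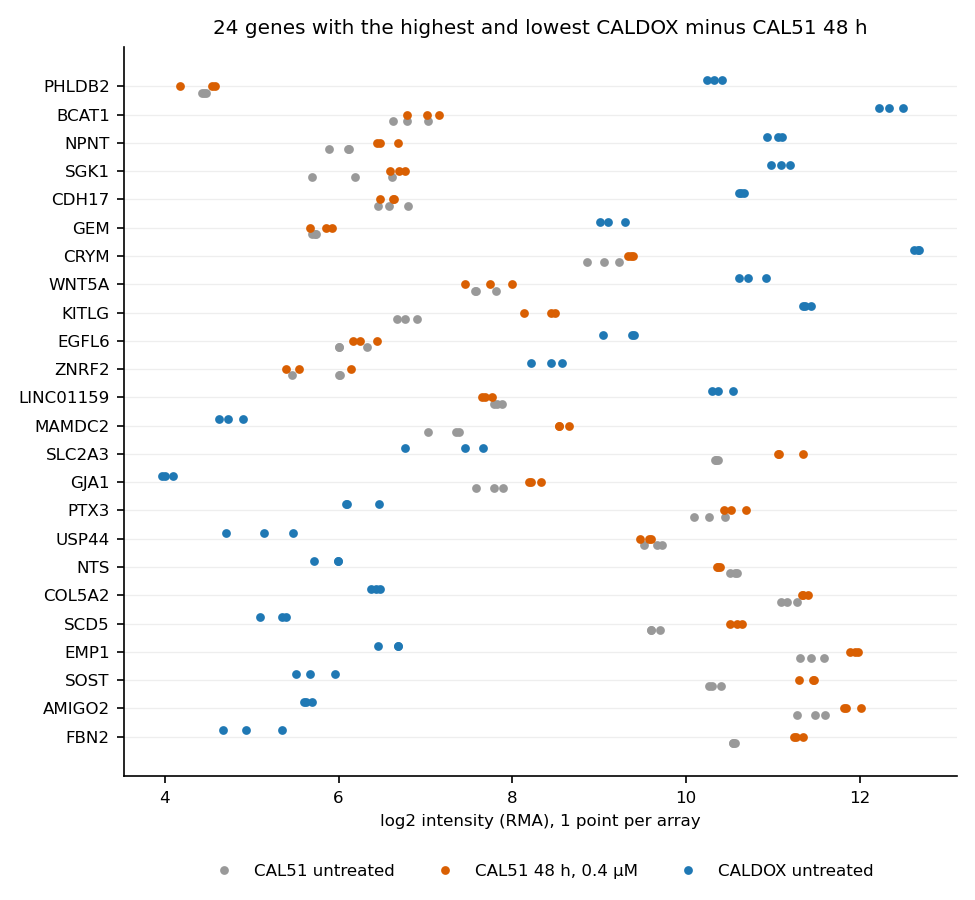
Log2 intensity (RMA, horizontal axis) of the 24 genes that differed most, 12 each way, between untreated CALDOX (blue) and CAL51 after 48 h in 0.4 µM doxorubicin (orange), with untreated CAL51 (grey), 1 point per array and 3 arrays per group. CALDOX stands far from both CAL51 groups in every row, while the treated and untreated CAL51 arrays lie near each other except for genes such as KITLG and MAMDC2.

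The changes of these 24 genes within CAL51 were smaller in size than their differences between the lines. Over the 12 highest, the 48 h change in CAL51 ran from -0.14 to 1.57, with 4 genes called higher and 0 lower, and CALDOX stood 2.57 to 5.87 above untreated CAL51. Over the 12 lowest, the 48 h change ran from -0.18 to 1.32, with 8 called higher and 0 lower, and CALDOX differed from untreated CAL51 by -5.81 to -2.50. Of all genes, 10.5% were called higher and 11.2% lower in CAL51 at 48 h. The 24 genes were chosen on the same 48 h arrays. That choice favours a rise in the lowest genes and a fall in the highest, so these counts are a description. KITLG, called in 3 of 4 probe sets, was the high gene with the largest acute rise. Its arrays read 6.67, 6.77 and 6.90 in untreated CAL51, 8.13, 8.49 and 8.44 at 48 h, and 11.43, 11.34 and 11.37 in CALDOX, so that the 3 groups formed separate steps.

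The same lines were also profiled on 6 arrays outside the 2 groups compared, CALDOX after 24 h in 4 µM and CAL51 after 24 h in 0.4 µM. These arrays entered the shared estimate of spread and the choice of probe set, so the main calls are not independent of them. There 2784 genes were higher in CALDOX (14.1%) and 2597 lower (13.1%). All 190 genes that were at least 2-fold higher in CALDOX than in CAL51 at 48 h had the same sign on these arrays, and 187 of them (98.4%) were called. Of the 324 at least 2-fold lower, 308 (95.1%) had the same sign, 299 (92.3%) were called with it, and 10 (3.09%) were called with the opposite sign. Over all 5568 called genes, 4366 (78.4%) had the same sign and 2854 (51.3%) were also called, against 8027 of the 14207 genes not called (56.5%) with the same sign. All 24 genes above were called in the same direction. The 2 groups of these arrays differ in dose, and the difference between the 2 line comparisons was not tested.

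**Figure D2:**
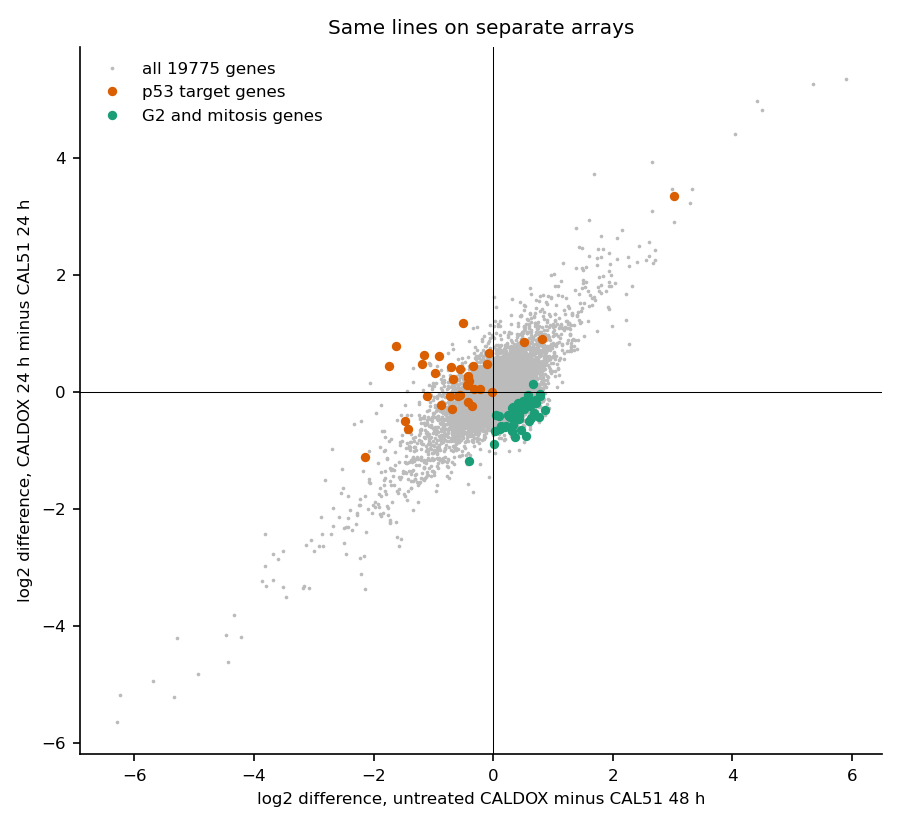
Each grey point is 1 of 19775 genes, with the log2 difference between untreated CALDOX and CAL51 at 48 h on the horizontal axis and that between CALDOX and CAL51 after 24 h of treatment, on 6 other arrays, on the vertical axis. Genes with large differences lie along the diagonal, the G2 and mitosis genes (green) sit mostly at positive horizontal and negative vertical values, and the p53 target genes (orange) mostly at negative horizontal values on both sides of 0 on the vertical axis.

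The p53 targets were lower in CALDOX than in acutely treated CAL51. Of 35 measured members of the list, 29 were lower, 3 were higher and 3 were not called, with a median of -0.56, beside 11.8% of all genes lower. CDKN1A read 12.24, 12.13 and 12.19 in CAL51 at 48 h and between 10.93 and 11.06 on the 3 CALDOX arrays, a difference of -1.19 ± 0.07 (2.29-fold, adjusted p = 1.6e-09). Untreated CAL51 lay lower still, at 9.69, 9.61 and 9.64, so CALDOX held an intermediate level, with no overlap among the 3 groups. GDF15, a secreted stress cytokine, showed the same order, with 9.47, 9.51 and 9.42 in untreated CAL51, 10.08, 10.29 and 10.18 in CALDOX and 11.98, 11.86 and 11.95 at 48 h. Its difference from CAL51 at 48 h was -1.74 ± 0.07 (3.35-fold, adjusted p = 1.7e-11), called in 2 of 3 probe sets. SULF2, a heparan sulfatase, was also intermediate, 1.62 below CAL51 at 48 h and 1.14 above untreated CAL51.

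Other p53 targets stood at or below the level of untreated CAL51. MDM2, the ubiquitin ligase that degrades p53, read 11.16, 11.04 and 11.18 at 48 h against 9.51, 9.87 and 9.71 in CALDOX, a difference of -1.43 ± 0.09 (2.69-fold, adjusted p = 6.8e-09) called in all 10 of its probe sets. Untreated CAL51, at 9.83, 9.66 and 9.65, overlapped CALDOX, and the difference of those groups was -0.02. TIGAR, which lowers glycolytic flux, read 11.14, 11.01 and 11.08 at 48 h, 9.59, 9.64 and 9.56 in CALDOX and 9.70, 9.58 and 9.63 in untreated CAL51, a difference of -1.48 ± 0.06 from the 48 h cells (2.79-fold, adjusted p = 2.4e-11). PLK2, a polo-like kinase, went past the untreated level: it read 11.86, 11.75 and 11.85 at 48 h, 9.64, 9.77 and 9.63 in CALDOX and 10.93, 10.65 and 10.78 in untreated CAL51. PLK2 differed from the 48 h cells by -2.14 ± 0.09 (4.41-fold, adjusted p = 2e-11). The targets named here thus did not share 1 position between the untreated and the treated parent. GDF15, SULF2, TIGAR and PLK2 were named at least in part for such differences, whereas CDKN1A and MDM2 were named whatever their values.

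The 3 p53 targets that were higher in CALDOX were KITLG (3.02), the phospholipase-like protein gene PLCL2 (0.82) and the F-box gene FBXO32 (0.52); the last 2 were named after their values were seen. As a list, the targets had risen in CAL51 at 48 h, with 33 of 35 called higher and a median of 1.06, and 26 of 35 were higher in CALDOX than in untreated CAL51, with a median of 0.52. Of all genes, 10.5% and 14.2% were higher in those comparisons. On the 24 h arrays the order of the lines was different. There 18 of 35 were higher and 6 lower in CALDOX, beside 14.1% and 13.1% of all genes. The list median was 0.22, with CDKN1A at 0.48 (adjusted p = 5.1e-05) and MDM2 at -0.64 (adjusted p = 6.7e-05). The change of order between the untreated and the treated CALDOX comparison was not tested as an interaction.

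**Figure D3:**
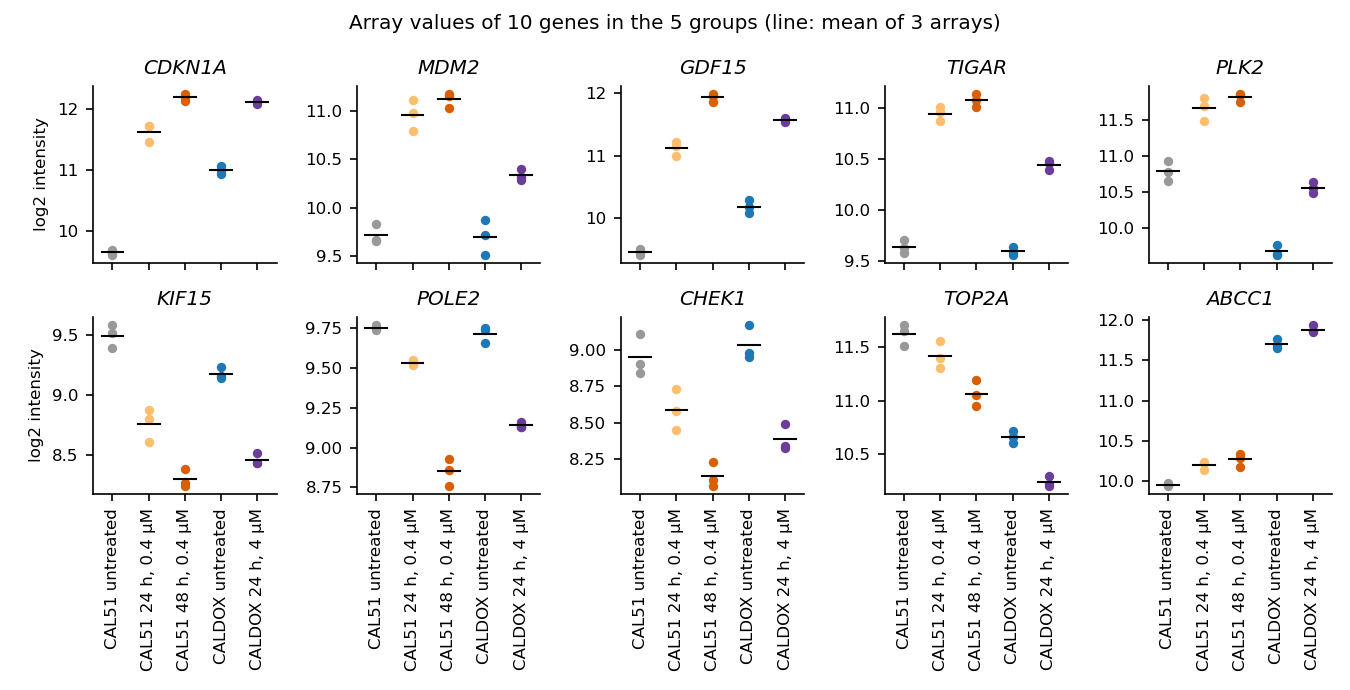
Log2 intensity (vertical axes, each with its own range and not starting at 0) of 10 genes in the 5 groups, 1 point per array and a line at the mean of 3. CDKN1A and GDF15 were intermediate in untreated CALDOX, and MDM2 and TIGAR lay at the level of untreated CAL51 there. KIF15, POLE2 and CHEK1, genes of replication, mitosis and checkpoint control, had their lowest mean in CAL51 at 48 h. These last genes, GDF15 and TIGAR were named at least in part because CAL51 at 48 h stood apart from both untreated groups. TOP2A was lower in both CALDOX groups, and ABCC1 was higher in both.

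Genes of the cell division cycle moved the other way. Of 44 G2 and mitosis genes, 36 were higher in CALDOX than in CAL51 at 48 h, 1 was lower and 7 were not called, with a median of 0.42, beside 16.3% of all genes higher. KIF15, a mitotic spindle kinesin, read 9.14, 9.23 and 9.16 in CALDOX against 8.25, 8.27 and 8.39 at 48 h, a difference of 0.87 ± 0.07 (1.83-fold, adjusted p = 1.6e-07). Its untreated CAL51 arrays, at 9.58, 9.51 and 9.39, were above both. CENPE, a kinetochore motor, was higher by 0.79 ± 0.08 (adjusted p = 8.4e-07), as was the kinetochore subunit SKA1 by 0.79 ± 0.16 (adjusted p = 0.0014) and NUF2, of the NDC80 complex, by 0.77 ± 0.11 (adjusted p = 4.5e-05). These were the largest members of the list, so the differences were modest beside those of the 24 genes above.

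The replication list followed the same direction. Of 37 G1/S and DNA replication genes, 28 were higher and 1 was lower, with a median of 0.50, beside 16.3% of all genes higher. POLE2, a subunit of the leading-strand polymerase, read 9.75, 9.74 and 9.66 in CALDOX, 8.76, 8.86 and 8.93 at 48 h and 9.77, 9.74 and 9.75 in untreated CAL51. It differed from the 48 h cells by 0.87 ± 0.06 (1.82-fold, adjusted p = 4.7e-09), and CALDOX and untreated CAL51 were nearly level. GINS3, of the replicative helicase, was higher by 0.78 ± 0.06 (adjusted p = 3.5e-08), RFC5, of the clamp loader, by 0.77 ± 0.07 (adjusted p = 2.9e-07) and ORC1, of the origin recognition complex, by 0.70 ± 0.09 (adjusted p = 1.2e-05). Homologous recombination and Fanconi genes were higher in 10 of 16 and lower in 1, with a median of 0.29, led by RAD51AP1 (0.81 ± 0.12, adjusted p = 9.6e-05) and the DNA translocase RAD54B (0.77 ± 0.06, adjusted p = 1.1e-07). CHEK1, the checkpoint kinase that restrains damaged cells in S and G2, read 8.98, 9.17 and 8.95 in CALDOX, 8.07, 8.11 and 8.23 at 48 h and 9.11, 8.90 and 8.84 in untreated CAL51, a difference of 0.90 ± 0.09 from the 48 h cells (1.86-fold, adjusted p = 8.6e-07). CHEK1 was named because CAL51 at 48 h lay below both untreated groups, and KIF15, POLE2 and RAD51AP1 partly so. Their levels are therefore a description.

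Both cell cycle lists had fallen in CAL51 by 48 h, with 44 of 44 G2 and mitosis genes and 34 of 37 replication genes called lower and medians of -0.60 and -0.67. Of all genes, 11.2% were lower there. Untreated CALDOX lay slightly under untreated CAL51, with medians of -0.16 and -0.15 and 19 of 44 and 16 of 37 genes called lower, beside 11.7% of all genes. On the 24 h arrays CALDOX in 4 µM was lower than CAL51 in 0.4 µM for 35 of 44 G2 and mitosis genes and higher for 0, with a median of -0.39. There 27 of 37 replication genes were lower and 1 was higher, with a median of -0.34. On those arrays 13.1% of all genes were lower and 14.1% higher. The order of the lines for these genes therefore differed between the 2 sets of arrays, and that change of order was not tested as an interaction. In bulk RNA, fewer cells in a cycle phase and less RNA per cell cannot be told apart.

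The promoters of 4 G2 and mitosis genes are printed because most of this list moved together. Many genes of this kind are targets of the DREAM complex, which binds the cell cycle homology region TTTGAA near NF-Y boxes, CCAAT. The 4 printed are the members with the largest differences among those that hold both motifs in the bases upstream of the RefSeq start (GRCh38.p14), written 5′ to 3′ on the strand of the gene from just before the first motif to the start. Capitals mark CCAAT or TTTGAA, and ATTGG or TTCAAA where the motif lies on the opposite strand.
KIF11 (chr10:92593067-92593129, plus strand): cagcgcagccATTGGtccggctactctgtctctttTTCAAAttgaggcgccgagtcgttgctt
DLGAP5 (chr14:55191586-55191733, minus strand): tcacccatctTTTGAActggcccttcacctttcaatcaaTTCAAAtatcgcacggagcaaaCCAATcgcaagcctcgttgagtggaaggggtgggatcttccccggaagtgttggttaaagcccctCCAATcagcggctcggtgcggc
CKAP2L (chr2:112764610-112764804, minus strand): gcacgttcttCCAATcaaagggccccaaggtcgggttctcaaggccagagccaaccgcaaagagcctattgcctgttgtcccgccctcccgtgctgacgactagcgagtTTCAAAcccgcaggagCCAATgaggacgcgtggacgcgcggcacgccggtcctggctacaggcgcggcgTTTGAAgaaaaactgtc
SPC25 (chr2:168890431-168890680, minus strand): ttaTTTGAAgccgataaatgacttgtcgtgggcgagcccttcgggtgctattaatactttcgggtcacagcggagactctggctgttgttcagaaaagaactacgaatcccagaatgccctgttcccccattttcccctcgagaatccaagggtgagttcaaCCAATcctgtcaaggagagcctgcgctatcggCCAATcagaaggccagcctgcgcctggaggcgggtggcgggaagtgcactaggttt
KIF11, a spindle kinesin, was higher in CALDOX by 0.68, DLGAP5, a spindle assembly factor, by 0.63, CKAP2L, a spindle protein, by 0.58 and SPC25, of the NDC80 complex, by 0.56.

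Within the 250 bases before the start, on both strands, CCAAT was present in 26 of 37 G2 and mitosis genes with a promoter in the table (70.3%), TTTGAA in 20 (54.1%) and both in 17 (45.9%). Among the 15384 tested genes with a promoter the shares were 34.1%, 10.6% and 4.01%. The related TTTAAA was present in 29.7% of the list and 8.67% of tested genes. The replication genes had CCAAT in 57.6% of 33 promoters but TTTGAA in 3.03%, and the p53 targets 42.3% and 3.85% of 26. A match describes the letters only and shows no binding. In SPC25 the only TTTGAA lay 247 bases before the start, upstream of CCAAT at 88 and 56 and not close to them. In DLGAP5 both TTTGAA (138 and 109) also lay upstream of both CCAAT (87 and 22). Whether a printed motif is a working element was not tested.

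The topoisomerase list, which also holds the repair genes TDP1 and TDP2, had calls in both directions. Both genes of topoisomerase II, the target of the drug, were called lower, TOP2B with a call that was not stable. TOP2A, encoding topoisomerase IIα, was the 1 member of the G2 and mitosis list that was lower in CALDOX. It read 10.60, 10.71 and 10.66 there, 11.05, 10.95 and 11.19 in CAL51 at 48 h and 11.71, 11.51 and 11.65 in untreated CAL51, 3 steps with no overlap. The difference from the 48 h cells was -0.41 ± 0.08 (1.33-fold, adjusted p = 0.00077), called in 2 of 3 probe sets, and that on the 24 h arrays was -1.18 (adjusted p = 8.5e-09). TDP1, which removes topoisomerase I from DNA ends, was higher by 0.66 ± 0.06 (adjusted p = 3.4e-07). TOP2B was lower by 0.28 with an adjusted p of 0.048, and that call was lost under 6 of 14 other settings. Of the 8 genes of the topoisomerase list, 3 were higher and 3 lower, beside 16.3% and 11.8% of all genes, with a median of 0.10. Only 1 was higher without CAL51 48 h replicate 1 or 2 or CALDOX replicate 2, or when only the 2 groups compared were fitted, and 1 was lower with the most variable probe sets.

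Of 16 ABC transporter genes, 6 were higher (37.5%) and 2 lower (12.5%), beside 16.3% and 11.8% of all genes. The list median was 0.07. ABCC1, the efflux pump MRP1, read 11.69, 11.77 and 11.66 in CALDOX, 10.29, 10.17 and 10.34 at 48 h and 9.97, 9.95 and 9.94 in untreated CAL51. Its difference from the 48 h cells was 1.44 ± 0.06 (2.71-fold, adjusted p = 2.4e-11), and on the 24 h arrays it was 1.69 (adjusted p = 3.5e-12). ABCA3, a lysosomal lipid transporter, was higher by 0.88 ± 0.08 (adjusted p = 2.5e-07). MVP, the major vault protein, listed here with the transporters, was higher by 0.76 ± 0.09 (adjusted p = 7.6e-06), having also risen by 0.91 in CAL51 at 48 h. ABCG2, a second drug efflux pump, was lower: it read 7.21, 7.01 and 7.24 in CALDOX against 7.67, 7.89 and 7.75, a difference of -0.62 ± 0.09 (1.54-fold, adjusted p = 8e-05). ABCB1, which encodes P-glycoprotein, stood at 5.71, 5.57 and 5.68 in CALDOX and 5.74, 5.65 and 5.77 at 48 h, overlapping levels with a difference of -0.07 (adjusted p = 0.64).

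Detoxification genes split by class. Metallothioneins, small metal-binding proteins, were higher in 7 of 8 and lower in 0, beside 16.3% and 11.8% of all genes. The list median was 0.88. MT1M read 9.68, 9.82 and 9.68 in CALDOX against 7.34, 7.36 and 7.67 at 48 h, a difference of 2.27 ± 0.10 (4.82-fold, adjusted p = 4.2e-11), while MT1F (1.09), MT1G (0.96) and MT1E (0.89) differed by less. Metallothionein transcripts are near-identical and may share probe signal, so the members are not independent of each other. Of 35 NRF2 and glutathione genes, 19 were higher and 6 lower, with a median of 0.23: PGD, of the pentose phosphate pathway, was higher by 1.00 ± 0.05 (2-fold, adjusted p = 2e-10), GPX2 by 0.70 and GCLC, which limits glutathione synthesis, by 0.69, and the glutathione transferase GSTA4 was lower by 0.77. Of 8 aldo-keto and carbonyl reductases, a class that can reduce anthracyclines, 3 were higher and 3 lower. The related genes AKR1C1 (-0.86 ± 0.08, adjusted p = 2.1e-07) and AKR1C2 (-0.78 ± 0.06, adjusted p = 4.8e-08) led the lower ones, and their probe sets may share signal.

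**Figure D4:**
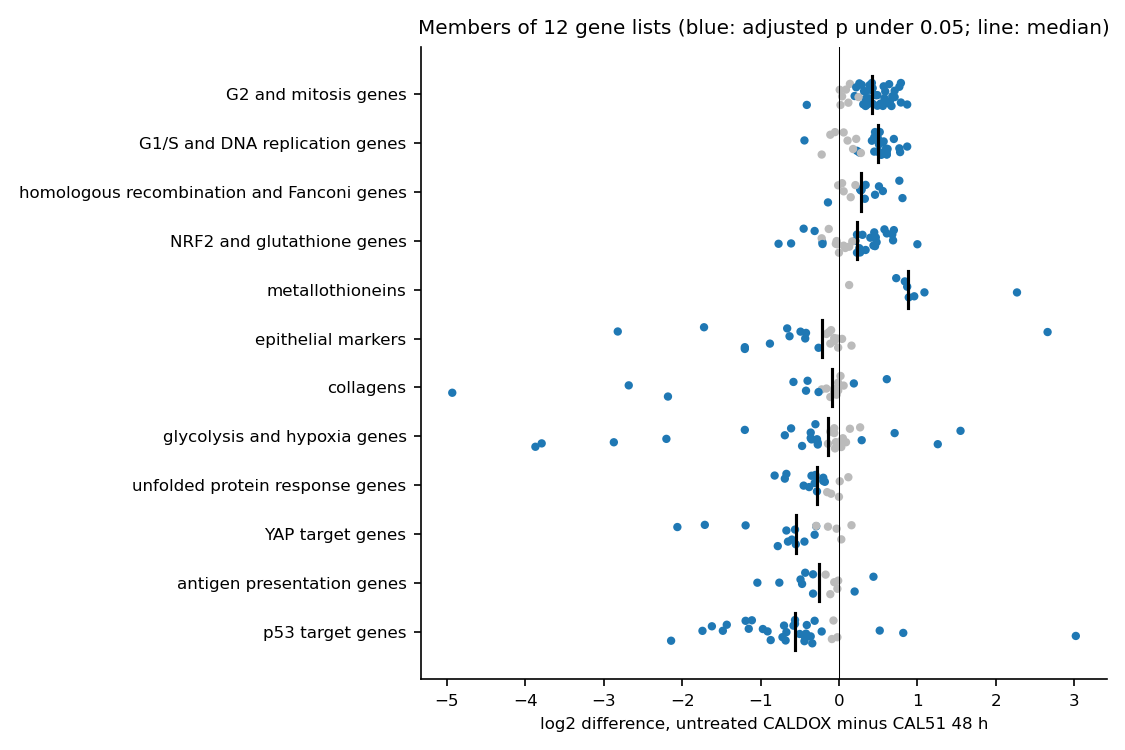
Log2 difference between untreated CALDOX and CAL51 at 48 h (horizontal axis) for the members of 12 gene lists, with called genes in blue, others in grey, and a bar at the median of each list. The medians lie at -0.56 for p53 targets and -0.55 for the YAP list, which also holds YAP1, WWTR1, TEAD1 and TEAD4. They lie at 0.42, 0.50 and 0.88 for the G2 and mitosis, replication and metallothionein lists.

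Genes that rose in CAL51 by 48 h and were lower in CALDOX than in untreated CAL51 were on opposite sides of the untreated parent. The 8 with the largest smaller value of the opposed differences were TUBA1A, SOST, MAMDC2, CDH1, FSTL1, LGALS3, PLK2 and PROS1, and their choice by these differences makes the sizes a description. TUBA1A, an α-tubulin, read 8.37, 8.40 and 8.34 in untreated CAL51, 10.11, 10.34 and 10.26 at 48 h and 6.73, 6.52 and 6.45 in CALDOX. CALDOX differed from the 48 h cells by -3.67 ± 0.11 (12.8-fold). CDH1, encoding E-cadherin, read 7.27, 7.35 and 7.39, then 8.66, 8.78 and 8.98, and 5.98, 5.84 and 6.15 in CALDOX, which was 7.04-fold under the 48 h cells. The glycoprotein FSTL1 (-2.69), the galectin LGALS3 (-2.52) and the anticoagulant protein S gene PROS1 (-3.51) had the same order. LGALS3 was called in 1 of 2 probe sets, the other standing at -0.03. All 8 were also called lower in CALDOX on the 24 h arrays, with differences of -4.95 to -0.98.

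Other genes were chosen because CAL51 at 48 h stood apart from both untreated groups. The 8 highest at 48 h were XG, TUBA1A, GDF15, EPAS1, SULF2, PURPL, CDH1 and TIGAR, and 6 of them also differed between untreated CALDOX and untreated CAL51, 2 higher and 4 lower. XG, a blood group antigen gene, read 8.10, 8.38 and 8.45 at 48 h against 6.27, 6.26 and 6.30 in untreated CAL51 and 5.97, 5.67 and 5.78 in CALDOX, and the p53-induced non-coding RNA PURPL read 4.92 to 5.60 against 3.64, 3.64 and 3.48 and against 3.51, 3.27 and 3.29. EPAS1, the hypoxia factor HIF-2α, was lower in CALDOX by 2.20 ± 0.11 (4.61-fold, adjusted p = 2.3e-10), called in 2 of 3 probe sets. The 8 that were lowest at 48 h were GAS2L3, ZBTB2, KIF15, POLE2, NET1, NSD2, CHEK1 and RAD51AP1, of which KIF15 also differed between the untreated lines (-0.32). CALDOX was above the 48 h cells by 0.81 to 0.93 for these genes, and differed by -3.67 to -1.48 for those highest at 48 h. For the latter, 6 of 8 were called lower in CALDOX on the 24 h arrays too, whereas GDF15 (0.45) and SULF2 (0.78) were called higher there. For the genes lowest at 48 h, 0 of 8 were called higher in CALDOX at 24 h, where their differences ran from -0.39 to -0.01.

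In the collagen, TGF-beta, YAP and integrin lists, lower calls outnumbered higher ones, where 16.3% of all genes were higher and 11.8% lower. In list order, 10%, 9.68%, 0% and 11.8% were higher and 35%, 38.7%, 70.6% and 35.3% lower. Collagen genes were lower in 7 of 20 and higher in 2, with COL1A2 at -2.68 ± 0.05 (6.4-fold, adjusted p = 6e-15) and COL12A1 at -2.18 ± 0.06 (adjusted p = 2.2e-13) beside COL5A2. TGF-beta and matrix genes were lower in 12 of 31 and higher in 3, led by THBS1, encoding thrombospondin-1, at -3.00 ± 0.10 (8.01-fold, adjusted p = 1.9e-12). The YAP list holds targets of the Hippo pathway's effector and also YAP1, WWTR1, TEAD1 and TEAD4 themselves. Its genes were lower in 12 of 17 and higher in 0, with a median of -0.55. ANKRD1 among them read 6.91, 6.92 and 6.73 in CALDOX against 8.92, 8.86 and 8.98, a difference of -2.06 ± 0.08 (4.18-fold, adjusted p = 6e-12), and the tissue factor gene F3 differed by -1.71 ± 0.08 (adjusted p = 1e-10). ANKRD1 did not pass the test on the 24 h arrays (0.16, adjusted p = 0.14), where F3 was lower by 1.33. Of 17 integrin subunits, 6 were lower and 2 higher, ITGA6 by 1.31 ± 0.12 (adjusted p = 3.9e-07).

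Epithelial markers were lower in 11 of 22 and higher in 1, beside 11.8% of all genes lower and 16.3% higher. The tight junction gene OCLN was lower by 1.72 ± 0.08 (adjusted p = 1e-10) and the keratin gene KRT8 by 1.20 ± 0.06 (adjusted p = 3.2e-10). KRT19 was the exception, at 11.27, 11.41 and 11.36 in CALDOX, 8.67, 8.58 and 8.80 in CAL51 at 48 h and 6.46, 6.69 and 6.62 in untreated CAL51, a difference of 2.66 ± 0.07 from the 48 h cells (6.34-fold, adjusted p = 2e-13). Its other probe set was not called. Mesenchymal markers were lower in 6 of 19 and higher in 2, among them TAGLN (-2.01 ± 0.06, adjusted p = 2.2e-13) and the vimentin gene VIM (-1.90 ± 0.07, adjusted p = 2.6e-12) on one side and the fibronectin gene FN1 (1.81 ± 0.06, adjusted p = 5.8e-13) on the other. Markers of both identities thus included lower and higher genes. The luminal markers AGR3 (2.32), AGR2 (1.74) and FOXA1 (1.11) were higher, within a list of 14 with 4 higher and 3 lower. Of 13 stem-like markers, 4 were higher and 1 lower: ALDH1A1 was higher by 1.48 ± 0.06 (adjusted p = 1.8e-11) and CD44 by 1.38 ± 0.09 (adjusted p = 7.6e-09), while PROCR was lower by 1.06 ± 0.08 (adjusted p = 3e-08).

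ESR1 (0.05, adjusted p = 0.73) and PGR (0.08, adjusted p = 0.61), the receptor genes that define the triple-negative class, were not called. ERBB2 differed by 0.16 with an adjusted p of 0.0495, a call lost under 9 of 14 other settings. Among markers of other cell types, 0 of 8 blood cell markers were called, 1 was higher (KDR) and 1 lower (CDH5) of 8 endothelial markers, and of 9 fibroblast markers 2 were lower, PDGFRB by 1.67 and COL3A1 by 0.58. Of all genes, 16.3% were higher and 11.8% lower. The mean level over the blood cell list ran from 7.15 to 7.29 at 48 h and from 7.17 to 7.33 in CALDOX. Both endothelial calls were lost without single arrays, KDR without CAL51 48 h replicate 1 or 3 or CALDOX replicate 1 and CDH5 without CAL51 48 h replicate 1 or 2 or CALDOX replicate 3. PECAM1, of the same list, was not called with its brightest probe set (0.09), differed by 2.58 with its most variable one, and was called higher in 3 of 5 probe sets. Mean levels over the endothelial list were 6.63 to 6.77 at 48 h and 6.65 to 6.76 in CALDOX, and over the fibroblast list 7.71 to 7.87 and 7.47 to 7.55; without detection calls, absence of these genes cannot be read from such levels.

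Glucose and oxygen response genes were lower in 15 of 31 and higher in 4, beside 11.8% and 16.3% of all genes. The list median was -0.14. SLC2A3, a glucose transporter, read 6.76, 7.45 and 7.66 in CALDOX against 11.34, 11.07 and 11.06, and the second transporter gene SLC2A1 read 8.64, 8.68 and 8.65 against 11.59, 11.51 and 11.49. These were differences of -3.87 ± 0.16 (14.6-fold, adjusted p = 2.9e-11) and -2.87 ± 0.06 (7.33-fold, adjusted p = 8.9e-15), and the vasodilator peptide gene ADM differed by -3.79 ± 0.10 (13.9-fold, adjusted p = 1.8e-13). Genes of the unfolded protein response were lower in 12 of 17 and higher in 0, with a median of -0.28, led by HERPUD1, a factor of endoplasmic reticulum degradation, at -0.82 ± 0.12 (adjusted p = 3.8e-05). On the 24 h arrays 2 of the 17 were higher and 2 lower, near the shares of all genes there (14.1% and 13.1%). The ATF4 and amino acid list gave 4 higher and 9 lower of 25, with the amino acid transporter SLC7A5 at -0.89 ± 0.07 (adjusted p = 1e-07).

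Immune genes did not move as 1 block, where 16.3% of all genes were higher and 11.8% lower. The higher shares of the antigen presentation (14.3%) and NF-kappaB (18.5%) lists were near that of all genes. Antigen presentation genes were lower in 7 of 14 and higher in 2, with a median of -0.25: the immunoproteasome subunit PSMB9 was lower by 1.04 ± 0.12 (adjusted p = 3e-06) and the peptide transporter TAP1 by 0.76 ± 0.06 (adjusted p = 8.9e-08). TAP1 had risen by 1.44 in CAL51 at 48 h and was 0.68 above untreated CAL51 in CALDOX. Of 32 interferon-stimulated genes 11 were higher and 1 lower, with a median of 0.09. IFITM1, an antiviral membrane protein, was higher by 1.15 ± 0.08 (2.22-fold, adjusted p = 7.3e-09), and the ubiquitin-like ISG15 was the lower one, at 9.32, 9.41 and 9.38 in CALDOX against 10.62, 10.45 and 10.50, a difference of -1.15 ± 0.06 (2.22-fold, adjusted p = 4.6e-10). Of 27 NF-kappaB genes 5 were higher and 7 lower, with the adhesion receptor ICAM1 at -1.63 ± 0.07 (adjusted p = 6.7e-11) and the chemokine CCL20 at 1.17 ± 0.12 (adjusted p = 1.6e-06). Immediate early genes gave 9 higher and 8 lower of 24, JUN being lower by 0.94 ± 0.08 (adjusted p = 2.1e-07) and BTG1 higher by 0.96 ± 0.10 (adjusted p = 2.2e-06).

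In the BCL2 family, which sets the threshold for apoptosis, 6 of 18 were lower and 3 higher, beside 11.8% and 16.3% of all genes. BCL2L11, which encodes the cell death protein BIM, read 8.44, 8.47 and 8.45 in CALDOX against 9.57, 9.59 and 9.60, a difference of -1.13 ± 0.09 (2.19-fold, adjusted p = 4.4e-08) called in 5 of 7 probe sets. Its 48 h change in CAL51 was -0.05, and on the 24 h arrays it was lower in CALDOX by 1.47. BOK, a related effector, was lower by 1.03 ± 0.08 (adjusted p = 7.1e-08).

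Of 27 replication-dependent histone genes 7 were lower and 2 higher, beside 11.8% and 16.3% of all genes. The higher count was 0 without replicate 3 of either group and 1 without replicate 2 of either. H2BC12 read 10.29, 10.29 and 10.31 in CALDOX against 11.24, 11.19 and 11.17, a difference of -0.90 ± 0.05 (adjusted p = 2e-09), having risen by 1.65 in CAL51. Histone genes have near-identical copies, so a probe set may read more than 1 of them. Cholesterol synthesis genes were higher in 8 of 18 and lower in 2, with INSIG1, a sterol sensor, at 1.15 ± 0.11 (adjusted p = 6.2e-07). Lysosome and autophagy genes were lower in 9 of 24 and higher in 4, with WIPI1, a phosphoinositide-binding autophagy protein, at -1.45 ± 0.11 (adjusted p = 6.7e-08). Of 21 ribosome biogenesis genes 2 were higher and 0 lower.

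Several further lists had few calls or calls in both directions, where 16.3% of all genes were higher and 11.8% lower. The Wnt (14.3% and 9.52%) and fatty acid (12.5% each way) lists lay near these shares. Of 21 Wnt antagonists and targets 3 were higher and 2 lower, but 2 of them had large differences: WNT5A, above, and the secreted Wnt inhibitor gene FRZB, at 6.12, 5.54 and 5.41 in CALDOX against 9.08, 9.18 and 9.22 (-3.47 ± 0.14, 11.1-fold, adjusted p = 2.2e-11). Of 13 heat shock genes 3 were lower and 1 higher, the small chaperone genes CRYAB at -1.53 and HSPB1 at -0.89 against HSPB8 at 0.59. Among 12 genes of the EGFR family and its ligands ERBB3 was higher by 0.66 ± 0.06 (adjusted p = 4.6e-07) and ERBB4 lower by 0.83 ± 0.07 (adjusted p = 2.5e-07). EGFR was not called with its brightest probe set (0.33, adjusted p = 0.49), and its difference turned to -1.09 with its most variable one. Of 11 DNA methylation enzymes 3 were higher and 2 lower, the maintenance factor UHRF1 at 0.61 and the demethylating enzyme TET1 at -0.66. Of 16 fatty acid genes 2 were higher and 2 lower, with the fatty acid synthase gene FASN at 0.54 and the desaturase gene SCD at -0.74. Of 8 basal markers 1 was higher and 2 were lower.

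Several small counts above changed when 1 array was left out. Of the antigen presentation genes, 0 were higher without CAL51 48 h replicate 2 or CALDOX replicate 2 or 3, and 1 without CAL51 48 h replicate 1 or 3. Of the NF-kappaB genes, 3 were higher without CAL51 48 h replicate 1 or 2 or CALDOX replicate 2 or 3. The 1 lower recombination gene (RAD51C, -0.14) was lost on leaving out any of the 6 arrays. The collagen and ribosome biogenesis lists had 1 higher gene without replicate 2 or 3 of either group, the mesenchymal list without CAL51 48 h replicate 1 or 2 or CALDOX replicate 2 or 3, and the integrin list when any 1 array other than CALDOX replicate 3 was left out. The fatty acid list had 1 higher without CAL51 48 h replicate 1 or CALDOX replicate 2 or 3. The EGFR family had 1 higher when any 1 of the CAL51 48 h arrays or CALDOX replicate 3 was left out, and 2 lower without CALDOX replicate 1. The basal list had 1 lower without CAL51 48 h replicate 1, and the fibroblast list 1 higher without CAL51 48 h replicate 3.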

How the data were processed

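The table analysed held 54675 Affymetrix probe sets on 15 arrays. The authors made its values with RMA, per the submitters' processing notes, which corrects background, quantile normalizes and summarizes probes; the sources used here give no RMA version. Their range, 3.083 to 14.762, is why the deposited numbers were read as log2 intensities, and nothing was normalized again.

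By the platform annotation, 41097 probe sets carried 1 symbol, 1801 several and 11777 none; 62 controls were dropped. A gene was represented by its brightest probe set over all arrays, which gave 19775 genes, 10523 of them with several probe sets. Probe sets of 1 gene called in opposite directions were found for 0 of the 169 named genes that were called.

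The model, with a mean for each of the 5 groups, used the 15 arrays together (limma 3.58.1, R 4.3.3, functions lmFit and eBayes, 10 residual degrees of freedom) and two-sided tests adjusted by Benjamini-Hochberg over all genes at 0.05. The steps were tested on simulated data. Alternatives changed the arrays fitted, array weights, prior, normalization, probe set choice, filter on dim genes, replicate block and each array left out.

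The genes named were the 12 highest and 12 lowest called genes that changed at least 2-fold without overlap of arrays, 8 genes each way that stood apart in CALDOX, 8 each way that stood apart in CAL51 at 48 h, 8 with opposed differences, up to 4 members with the largest change of each of 38 lists, and a few fixed genes of drug transport, p53 and receptor status. The lists gave 721 genes that were tested, and 65 of the listed names are not analysed here. The comparison, members and lists were chosen with earlier results of these data known. List counts have no test of their own. Promoter sequences and coordinates are from RefSeq (GRCh38.p14). The number of arrays, 3 in each group, limits the precision.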

Additional observations from a re-analysis of the deposited data

How the results depend on the processing

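Under the 14 other settings, 112 of 113 counts of called genes stayed within 1.5 times their value as reported. The exception was the count of genes changed at least 2-fold: testing against a 2-fold threshold itself (limma treat) left 274 genes where 514 passed when the fold was read from the estimate. Calls for CALDOX against CAL51 at 48 h numbered 4682 to 5338 with 1 array left out, 5413 with the replicate block and 6685 with array weights, against 5568. Replicate numbers did not pair the cultures: deviations of same-numbered CALDOX and CAL51 48 h arrays correlated at -0.430, 0.053 and 0.066. The p53 list kept 28 to 29 lower genes, the G2 and mitosis list 33 to 38 higher and the replication list 26 to 31 higher. Interferon-stimulated genes had 6 to 15 higher, the 6 among 9 members left after the filter on dim genes. Antigen presentation genes had 0 to 2 higher and NF-kappaB genes 1 to 5.

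Of 2560 values for the 186 named genes, 2504 kept direction and side of the threshold, 39 (from 10 genes) lost the call and 16 gained it. EGFR reversed, from 0.33 (adjusted p = 0.49) to -1.09 with its most variable probe set. PECAM1 was 0.09 with its brightest probe set and 2.58 with its most variable. The causes were not tested. Probe sets near background limit what dim genes can show.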

Other observations

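Some genes that changed in both states were not called between them. These were picked from the gene lists after their values were seen, and both changes are measured from the same untreated CAL51 arrays. CROT, a peroxisomal carnitine acyltransferase, averaged 8.78 in untreated CAL51, was 2.22 higher at 48 h and averaged 11.05 in CALDOX. The direct difference was 0.05, with a 95% interval of -0.08 to 0.18. The NF-kappaB inhibitor gene NFKBIA averaged 10.43, 11.31 and 11.24, with an interval of -0.20 to 0.05. TIMP1, a metalloproteinase inhibitor, averaged 9.59, 10.53 and 10.60, with an interval of -0.08 to 0.20. Lower in both states were ASNS, asparagine synthetase, at 11.05, 10.05 and 9.97, with an interval of -0.22 to 0.06, and CHAC1, a glutathione-degrading enzyme, at 9.20, 8.28 and 8.40, with an interval of -0.05 to 0.29. Because these 5 genes were picked for a small difference, the intervals are a description and cannot show that the 2 states are level. FOS, picked in the same way, was higher in CALDOX by 0.32 (limma adjusted p = 0.0002). JUNB was not called (-0.22, limma adjusted p = 0.057) and its arrays overlapped, although its interval, which is not adjusted, was -0.40 to -0.05. The lowest of 3 CROT probe sets stood at -0.43 and was not called.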
